A study of Nasonia vitripennis with 79 samples.

Results

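The CYP6CK genes of the parasitoid wasp Nasonia vitripennis are cytochrome P450 genes of the CYP6 family. The 5 members described are CYP6CK6, CYP6CK7, CYP6CK8, CYP6CK10 and CYP6CK11. They were taken by symbol from a count table of 14621 genes, which held 7 CYP6CK rows and 43 P450 rows in all. Heads and abdomens of the WOM strain were taken 1 day after emergence and their RNA sequenced. WOM is a polyploid line that goes back to wasps in which a sex-determining gene was knocked down, so every group shares that ancestry, and the gene was not analysed here. In this species unfertilised eggs normally give haploid males and fertilised eggs diploid females. The line also gives diploid males and triploid females. The female groups were F14 triploid, F14 diploid, F2 triploid and F2 diploid, and the male groups were F15 diploid, F15 haploid, F3 diploid and F3 haploid. Each was sampled as head and as abdomen, which gave 16 groups and 79 libraries. A group held 5 libraries, except F14 triploid female abdomens with 4. Males were always 1 generation later than the females they are set against, so sex and generation cannot be told apart fully. The labels name neither the number of wasps in a library nor separate cultures, so the p-values speak only of how far these libraries scatter, which may partly be technical scatter.

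Cytochrome P450 enzymes are haem proteins that oxidise small molecules with electrons passed on by NADPH-cytochrome P450 reductase. In insects the CYP6 and CYP9 families are best known for the oxidation of insecticides and plant compounds in gut, fat body and Malpighian tubules, and part of the CYP4 family acts on fatty acids and on the hydrocarbons of the cuticle. Such genes often lie in tandem clusters of young duplicates. In the order of RefSeq genes on assembly Nvit_psr_1.1, CYP6CK10 and CYP6CK11 were direct neighbours. CYP6CK6 lay between the carboxylesterase genes CCE-A4 and CCE-A9, whose symbols mark another class of detoxification enzyme. CYP6CK7 lay between LOC107981954 and LOC116415792, and CYP6CK8 between LOC100122628 and LOC100122651. 

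The members were chosen by earlier fold changes and ranks in these same data, which had put them among the most changed genes. Only the ranks by p were rebuilt, as the first 4 called genes per contrast among P450, glutathione S-transferase and carboxylesterase symbols. These held a member in 14 of the 31 contrasts computed. They were ploidy at F3 in male heads and abdomens, generation in male abdomens, and the ploidy-by-generation contrasts of male heads and abdomens. The others were female against male heads, and head against abdomen in males. Choice by fold change was not rebuilt, so other contrasts may also have chosen members. A further 5 are sums or differences of those 14 and so are set by them: ploidy in F15 male heads and abdomens, and generation in haploid male, diploid male and diploid female heads. Values of these 19 contrasts are given for the members as fold changes ± SE with no test. The F2 and F14 diploid female heads and all male groups were part of the choosing contrasts. Tests that use these libraries are therefore not independent of the choice. For the members the other 12 contrasts were tested with edgeR's quasi-likelihood F test, and a gene is called where its p, adjusted by Benjamini and Hochberg's method across every gene in the fit, is under 0.05. CPM is counts scaled to library size, and TPM is the deposited abundance per transcript length, used where genes are compared with each other. Fold changes are log2, and a positive one means higher in the group named first.

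Total expected counts per library ran from 12634506 to 94984496. The 5 libraries labelled F2 diploid female abdomen were left out, because they carried an eye marker. The opsin gene Lop1 was at 1810 to 4270 CPM in them, against 0 to 292 CPM in the other 34 abdomen libraries and 552 to 17200 CPM in female heads, here scaled to plain library totals. The highest of those 34 was F15 diploid male abdomen D119. That left 74 libraries in 15 groups. Of the 18 marker genes listed for eye, neurons, germ line and muscle, 10 were in the table, and of 4 fat body markers none was. In these bulk libraries fewer cells of a type and less RNA per cell cannot be told apart.

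The 5 genes differed in where they were abundant. Summed deposited TPM of the 5 genes was highest in male abdomens, at 508 ± 69.6 in F15 diploid males, 539 ± 88.1 in F15 haploid males, 165 ± 22.9 in F3 diploid males and 322 ± 160.3 in F3 haploid males (SD, n = 5 each). Male heads lay between 58.1 ± 10.7 and 129 ± 33.3 TPM, and female heads between 3.66 ± 2.68 and 38.2 ± 9.48 TPM. Female abdomens were at 14.5 ± 7.06 TPM in F14 triploids (n = 4), 16.1 ± 3.89 TPM in F14 diploids and 5.68 ± 0.845 TPM in F2 triploids. The gene with the largest share of the sum differed between groups. CYP6CK7 led in all 4 female head groups, with 59.3% to 76.1% of the summed TPM. CYP6CK8 led in all 4 male head groups, with 48.3% to 73.6%. CYP6CK11 made up 91.98% of the sum in F2 triploid female abdomens, whereas CYP6CK7 led in both F14 female abdomen groups. In male abdomens CYP6CK7 led in F15 haploids (51.8%) and F3 diploids (49.1%), and CYP6CK8 in F15 diploids (47.1%) and F3 haploids (53.8%).

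**Figure D1:**
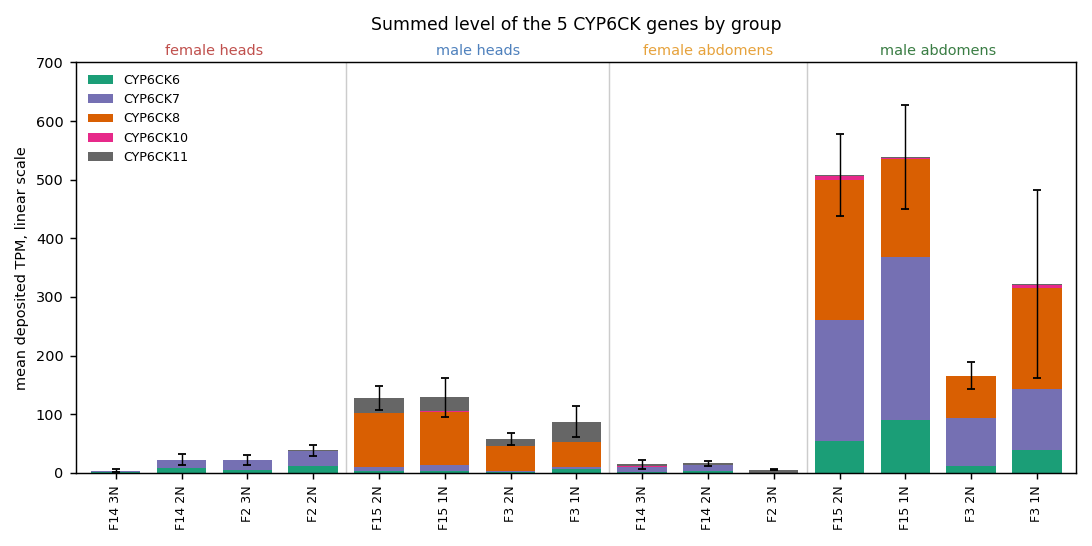
Mean deposited TPM of the 5 CYP6CK genes (linear axis) stacked by gene for the 15 groups. Error bars are the SD of the summed TPM over libraries. Male abdomens reach 165 to 539 TPM, and F14 triploid female heads and F2 triploid female abdomens hold the lowest sums, at 3.66 and 5.68 TPM.

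CYP6CK6 and CYP6CK7 had similar orders of groups, each highest in F15 haploid male abdomens and lowest in F2 triploid female abdomens. CYP6CK7 was at 193, 202, 306, 344 and 357 CPM in F15 diploid male abdomens and 254, 315, 411, 415 and 434 CPM in F15 haploid ones. In F3 it was at 79.0, 102.2, 103.2, 104.2 and 107.6 CPM in diploid male abdomens and 95.7, 97.5, 106.5, 144 and 211 CPM in haploid ones. Diploid and haploid libraries overlapped at both generations, and in the haploid abdomens the F15 libraries all lay above the F3 ones. CYP6CK6 was at 25.2, 34.4, 65.5, 99.9 and 133 CPM in F15 diploid male abdomens and 67.4, 122, 125, 126 and 136 CPM in F15 haploid ones. In F3 it was at 5.17, 9.70, 11.4, 16.1 and 29.5 CPM in diploid male abdomens and 32.2, 44.7, 45.0, 58.8 and 59.9 CPM in haploid ones. The 5 F3 diploid libraries all lay below the 5 F3 haploid ones, while the F15 ranges overlapped. Over the 74 libraries the log2 CPM of CYP6CK6 and CYP6CK7 correlated at r = 0.94, and at r = 0.66 once group means were taken out, as a description over libraries that share depth and composition. The TPM of CYP6CK7 over that of CYP6CK6 was not constant: its group median ran from 0.475 in F3 haploid male heads to 7.995 in F3 diploid male abdomens. Placed in order of mean CPM, neighbouring groups did not overlap at 2 of 14 steps for CYP6CK6 and 3 of 14 for CYP6CK7, so most neighbours in the order were not apart beyond their spread.

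CYP6CK8 was abundant in every male group and near 0 in every female one. Its means ran from 65.7 to 241 CPM in male abdomens and from 26.6 to 57.2 CPM in male heads. In females its means ran from 0.0641 to 0.781 CPM in heads, and from 0 to 0.92 CPM in abdomens. Among the 34 female libraries the highest was 2.33 CPM, below the lowest of the 40 male libraries at 21.1 CPM. All 5 F2 triploid female abdomens had a count of 0, which allows a level of up to 0.0255 CPM over the group (3 counts, counting error only).

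CYP6CK10 and CYP6CK11 lay side by side in the genome but peaked in different body parts. CYP6CK11 was highest in male heads, at 16.4 ± 2.63 CPM in F15 diploids, 16.1 ± 5.64 in F15 haploids, 9.10 ± 2.88 in F3 diploids and 23.2 ± 7.82 in F3 haploids. CYP6CK10 was highest in 3 of the 4 male abdomen groups, with means of 3.41 to 7.99 CPM. In F3 diploid male abdomens it averaged 0.329 CPM, below F14 triploid female abdomens at 0.496 CPM and F15 haploid male heads at 0.367 CPM, the highest of the male head groups. Of the counts of the pair, CYP6CK11 held 97.9% to 100% in the male head groups, 85.5% to 93.9% in the female abdomen groups and 19.9% to 49.3% in the male abdomen groups. The deposited counts of both genes were not whole, within a tolerance of 0.021, in 40 of the 74 libraries, whereas their sum was whole in all 74. Reads shared by the pair were thus divided between them during quantification, and the split of single libraries is uncertain. The counts of CYP6CK6, CYP6CK7 and CYP6CK8 were whole in all 74 libraries.

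**Figure D2:**
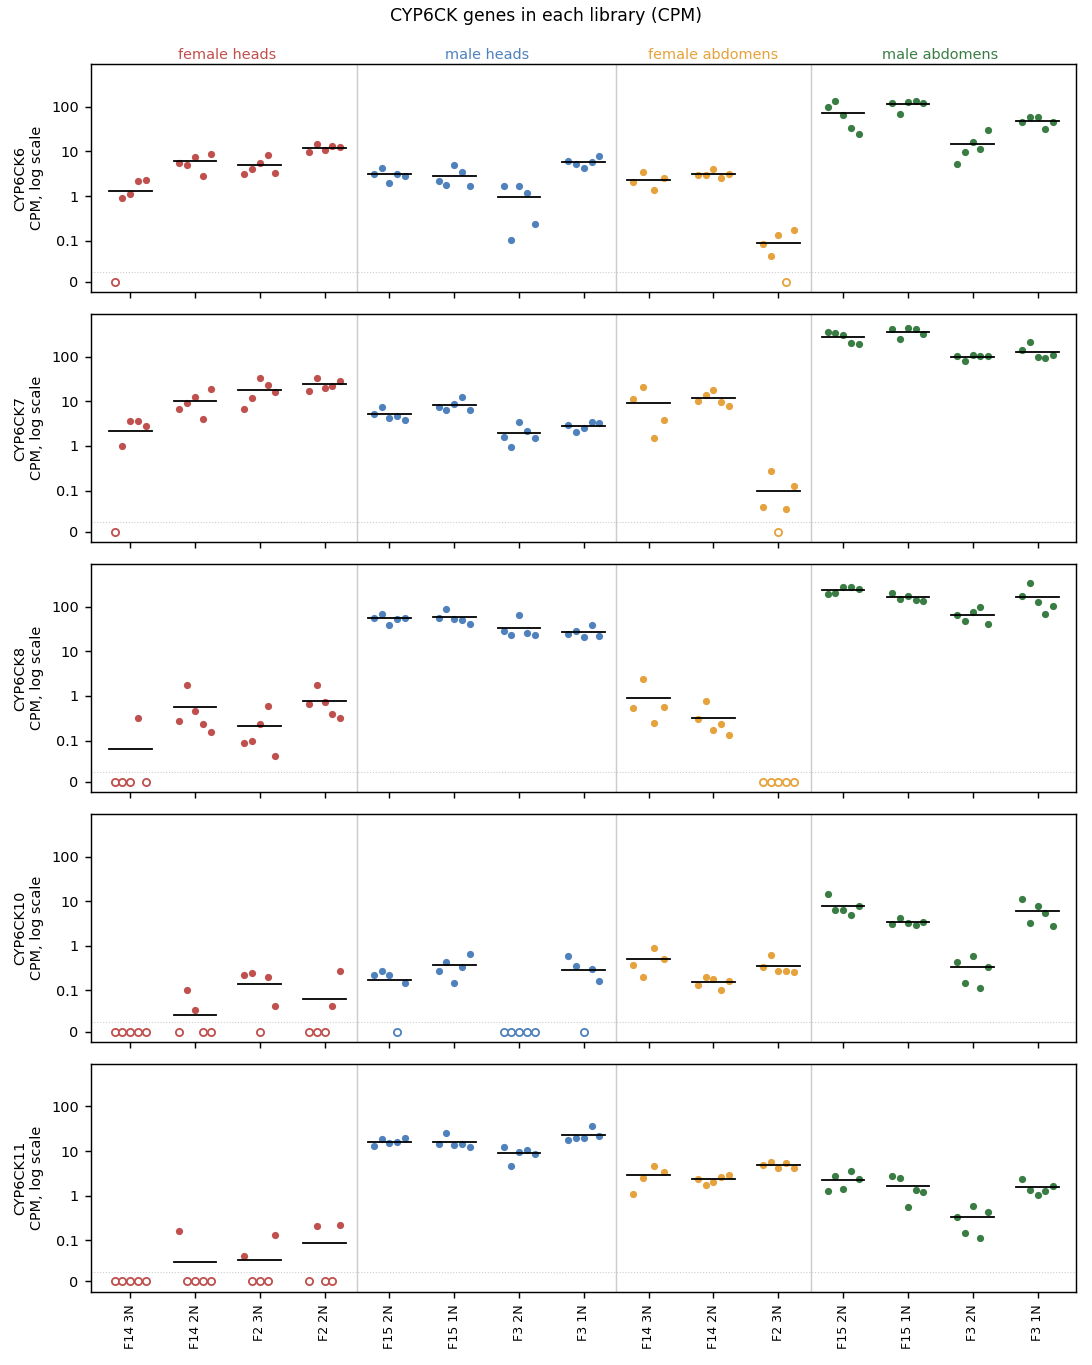
CPM of each CYP6CK gene in each of the 74 libraries (log axis, open circles at the foot mark a count of 0), with bars at group means. CYP6CK8 separates males from females in both body parts, CYP6CK11 peaks in male heads, CYP6CK6 and CYP6CK7 peak in male abdomens, and CYP6CK10 peaks in male abdomens other than F3 diploid ones.

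**Figure D3:**
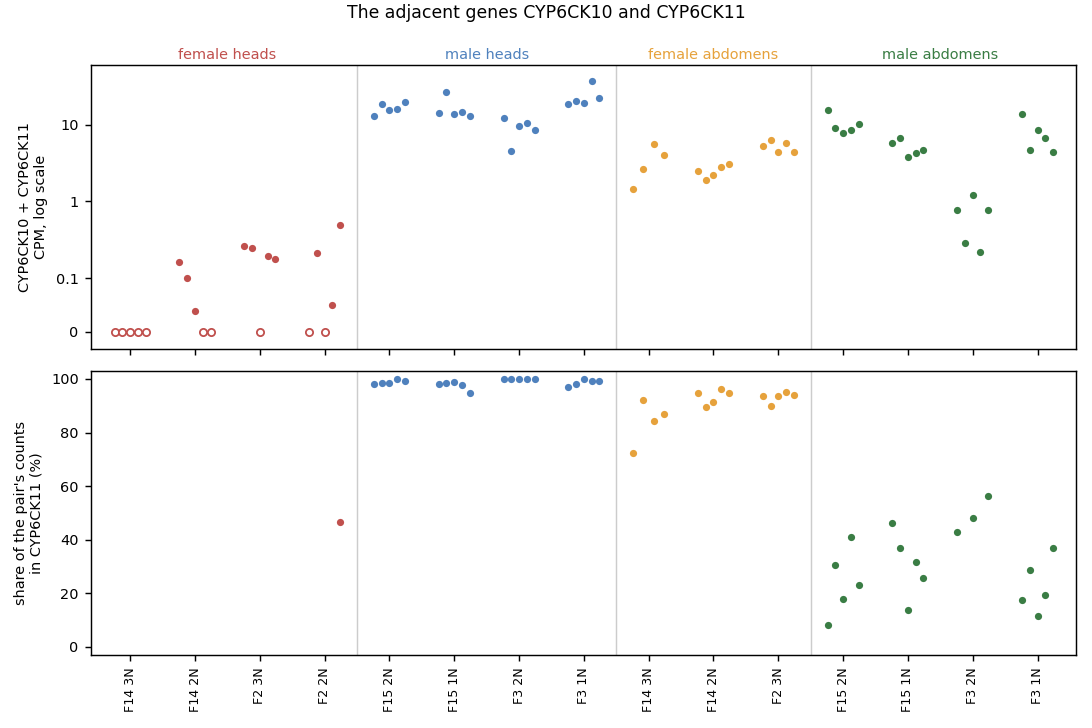
Summed CPM of the neighbours CYP6CK10 and CYP6CK11 in each library (upper panel, log axis, open circles mark 0) and the share of their counts given to CYP6CK11 (lower panel, percent, libraries with at least 10 counts of the pair). The share is near 100% in male heads and mostly under 50% in male abdomens.

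In the contrasts that had chosen the members, the values were as follows and are a description. Between F3 diploid and F3 haploid male abdomens CYP6CK10 differed by -4.20 ± 0.47, CYP6CK11 by -2.23 ± 0.50, CYP6CK6 by -1.75 ± 0.44 and CYP6CK8 by -1.33 ± 0.33. Between F15 and F3 diploid male abdomens the same genes differed by 4.61 ± 0.48 for CYP6CK10, 2.79 ± 0.50 for CYP6CK11, 2.36 ± 0.45 for CYP6CK6 and 1.91 ± 0.34 for CYP6CK8. These 2 comparisons share the F3 diploid libraries. CYP6CK10 was at 0.111, 0.145, 0.339, 0.445 and 0.604 CPM in the F3 diploid abdomens, below every F3 haploid library at 2.81, 3.27, 5.42, 7.63 and 11.3 CPM. In the F3 diploid abdomens the counts of the pair were few and divided almost evenly, at 2.00 to 12.5 for CYP6CK10 and 2.00 to 11.5 for CYP6CK11. Summed over the pair, the differences were -3.54 ± 0.41 between F3 diploid and F3 haploid abdomens and 3.99 ± 0.42 between F15 and F3 diploid abdomens. In F3 male heads CYP6CK6 differed by -2.56 ± 0.50 and CYP6CK11 by -1.34 ± 0.26 between diploids and haploids. Between heads and abdomens of males the fold change of CYP6CK7 was -5.80 to -5.50 over the 4 combinations of ploidy and generation, and that of CYP6CK11 was 2.85 to 4.76.

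In F15 males the ploidy contrasts follow from the choosing ones, and their values are a description too. CYP6CK10 was at 4.99, 6.30, 6.44, 7.76 and 14.5 CPM in F15 diploid male abdomens and 2.95, 3.13, 3.28, 3.41 and 4.29 CPM in F15 haploid ones. Every diploid library lay above every haploid one, and the fold change was 1.21 ± 0.39. CYP6CK8 differed by 0.56 ± 0.33, CYP6CK6 by -0.69 ± 0.43, CYP6CK7 by -0.40 ± 0.23 and CYP6CK11 by 0.41 ± 0.45 in these abdomens. Summed over the pair CYP6CK10 and CYP6CK11, the difference was 0.99 ± 0.36. In F15 male heads CYP6CK7 differed by -0.72 ± 0.28 between diploids and haploids, CYP6CK6 by 0.11 ± 0.47, CYP6CK8 by -0.07 ± 0.27 and CYP6CK11 by 0.01 ± 0.25.

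Between generations, values in male heads are likewise a description. CYP6CK7 was at 6.26, 6.501, 7.52, 8.71 and 12.7 CPM in F15 haploid heads and 2.03, 2.47, 3.01, 3.21 and 3.39 CPM in F3 ones. CYP6CK8 was at 40.4, 50.05, 52.4, 55.3 and 88.0 CPM in F15 haploid heads and 21.1, 21.6, 23.8, 28.2 and 38.3 CPM in F3 ones. The groups did not overlap for either gene, and every F15 library was the higher. The fold changes were 1.59 ± 0.29 for CYP6CK7 and 1.13 ± 0.28 for CYP6CK8, -1.03 ± 0.47 for CYP6CK6 and -0.50 ± 0.25 for CYP6CK11. Neuronal markers summed to 709 to 784 CPM in the F15 and 758 to 1092 CPM in the F3 haploid heads, and muscle markers to 731 to 808 CPM in the F15 and 635 to 1116 CPM in the F3 ones. Their part in these differences was not tested.

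In diploid male heads all 4 members with enough counts had positive fold changes between F15 and F3. This contrast follows from the choosing ones, so the agreement of the 4 is a description too. Of all genes 18.3% were called there in either direction and 7.82% were higher at F15, with a median fold change of -0.0153. CYP6CK7 was at 3.72, 4.22, 4.71, 5.26 and 7.56 CPM in F15 diploid heads and 0.963, 1.47, 1.63, 2.16 and 3.42 CPM in F3 ones, with no overlap and a fold change of 1.41 ± 0.29. CYP6CK6 was at 2.01, 2.76, 3.17, 3.19 and 4.15 CPM in F15 diploid heads and 0.101, 0.237, 1.16, 1.68 and 1.71 CPM in F3 ones. Its groups did not overlap, F3 libraries D12 and D15 were lowest, and the fold change was 1.64 ± 0.49. CYP6CK11 was at 12.8, 15.2, 16.2, 18.4 and 19.4 CPM in F15 diploid heads and 4.56, 8.45, 9.67, 10.6 and 12.2 CPM in F3 ones, a fold change of 0.85 ± 0.26. CYP6CK8 differed by 0.74 ± 0.27, and its F3 library D13 stood apart from its group in CPM (64.8, against 22.6 to 28.2) but not in deposited TPM (49.7, against 35.9 to 47.8). The highest F3 values of CYP6CK6 and CYP6CK7, 1.71 and 3.42 CPM, were also from D13. Its TPM of these genes, 1 and 1.96, were not the highest of the group. Without D13 the fold change of CYP6CK8 was 1.16.

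**Figure D4:**
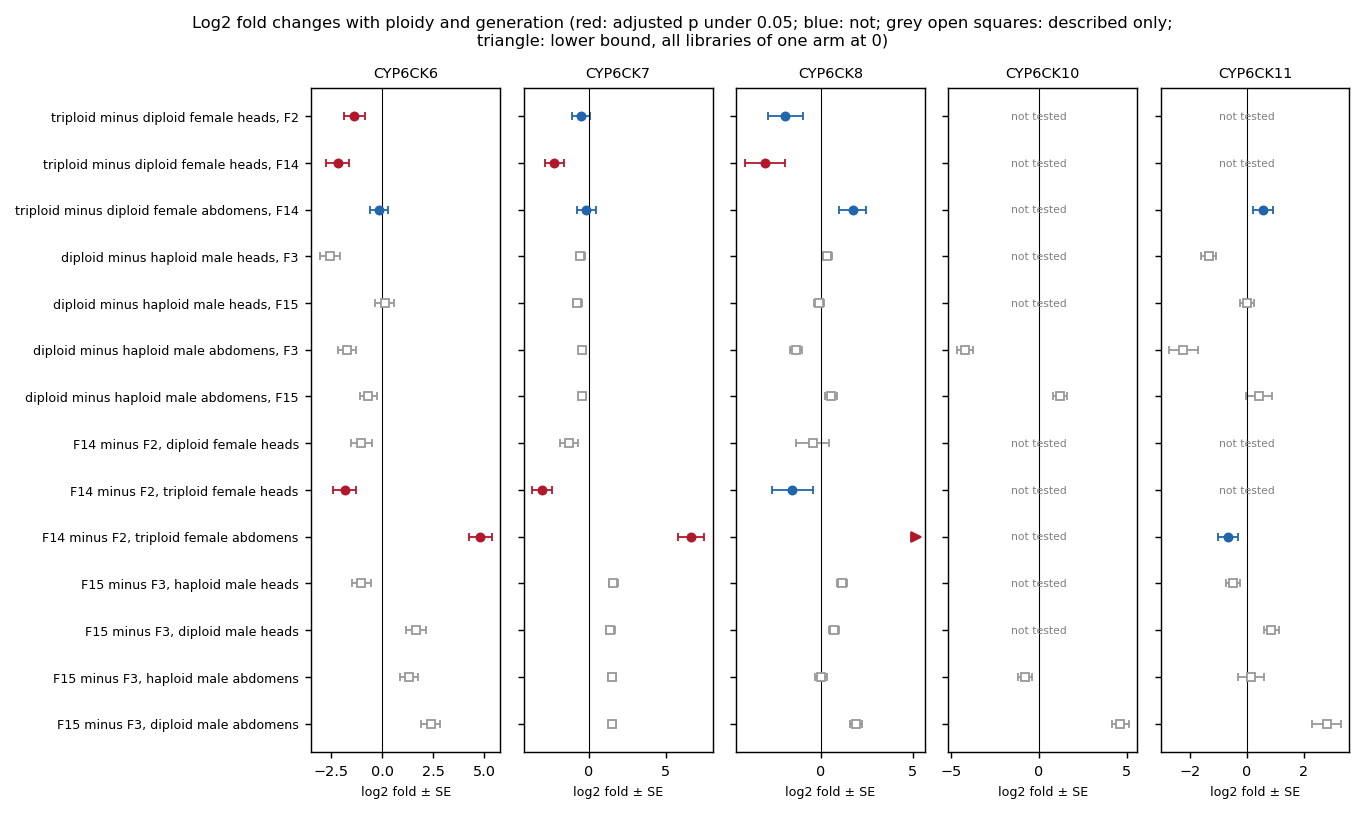
Log2 fold changes ± SE of each gene in the ploidy and generation contrasts. Red points passed the test, blue points did not, grey open squares are described only, and the triangle is a lower bound where all libraries of F2 triploid female abdomens were at 0. The red points lie left of 0 in female heads and right of 0 in F14 minus F2 triploid female abdomens.

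At F14 the tested members were lower in triploid than in diploid female heads. All 3 of them, CYP6CK6, CYP6CK7 and CYP6CK8, were called lower in the triploid heads. Of all genes 29.7% were called there in either direction and 13.7% lower. CYP6CK10 and CYP6CK11 had too few counts for the test. CYP6CK6 was at 0, 0.9, 1.14, 2.18 and 2.28 CPM in F14 triploid heads and 2.88, 5.04, 5.61, 7.46 and 8.80 CPM in F14 diploid heads. CYP6CK7 was at 0, 0.975, 2.81, 3.57 and 3.59 CPM in the triploid and 4.01, 6.65, 9.02, 12.4 and 19.1 CPM in the diploid heads. The groups did not overlap for either gene, and triploid library D81 had a count of 0 for both. CYP6CK6 fell by 2.19 ± 0.56 on the log2 scale (adjusted p = 0.006) and CYP6CK7 by 2.23 ± 0.63 (0.011). CYP6CK7 missed the threshold when the 2 groups were fitted alone (0.057). CYP6CK8 was at 0, 0, 0, 0 and 0.321 CPM in triploid heads and 0.159, 0.236, 0.275, 0.447 and 1.76 CPM in diploid ones, with 4 of 5 triploid libraries at 0. Its fold change was -3.03 ± 1.09 (0.041), and -2.04 without D92 (adjusted p = 0.17) and -6.64 without D84. Its call was also lost without D81, D82B, D83B, D85 or D93 (adjusted p 0.056 to 0.088) and with no filter on low counts (0.056).

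Marker genes moved with these F14 female heads. The 3 measured of 4 muscle markers summed to 1006 to 8063 CPM in triploid heads and 820.4 to 1149 CPM in diploid ones. The neuronal markers, 3 measured of 6, summed to 997 to 1897 CPM in triploid heads and 639.6 to 1013 CPM in diploid ones. Most of the neuronal sum was Syt1, and the receptor subunit gene nAChRb1 ran the other way, at 4.42 to 34.6 CPM in triploid and 36.4 to 64.8 CPM in diploid heads, with no overlap. Lop1, the 1 photoreceptor marker measured of 4, was at 715 to 3434 CPM in triploid heads and 2656 to 7524 CPM in diploid ones. Their part in the result was not tested.

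At F2 the same contrast of female heads called 1 of 3 tested members, CYP6CK6, where 42.4% of all genes were called. CYP6CK6 was at 3.09, 3.34, 4.02, 5.38 and 8.41 CPM in F2 triploid heads and 9.76, 10.7, 12.4, 13.5 and 14.605 CPM in F2 diploid heads, with no overlap. It fell by 1.37 ± 0.53 on the log2 scale (adjusted p = 0.043). The call held without D34 and was lost without any 1 of the other 9 libraries (adjusted p 0.054 to 0.089), and without D31 and D32 together (-1.11, 0.18), whose levels of the synaptic gene Syt1 were 1092 and 1275 CPM against 382 to 525 CPM in the other 3 triploid heads. CYP6CK7 differed by -0.46 ± 0.58 (0.55) and CYP6CK8 by -1.91 ± 0.95 (0.11). CYP6CK8 was called without D34 (-2.74, adjusted p = 0.047). Muscle markers summed to 441 to 699 CPM in the F2 triploid heads and 2028 to 6719 CPM in the F2 diploid heads. Most of that sum was Tm1. On average Zasp66 was at 61.4 CPM in triploid and 409 CPM in diploid heads, and Tm2 at 66.3 and 62.1 CPM. The neuronal marker nAChRb1 was at 1.67 to 9.85 CPM in triploid and 86.7 to 97.2 CPM in diploid heads, while Syt1 and nAChRa1 overlapped between the groups. The part of these markers in the result was not tested. Whether the triploid effect differed between F14 and F2 was tested directly. None of 3 members was called in that contrast, where 24.3% of all genes were, and CYP6CK7 alone had an unadjusted p under 0.05, at -1.77 ± 0.84 (0.049 before and 0.13 after adjustment). On log2(TPM + 0.5) and log2(TPM + 1) with limma CYP6CK7 was called (-2.00 and -1.69, adjusted p = 0.035 and 0.033), and DESeq2 called no member.

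Across generations, triploid female heads had lower CYP6CK6 and CYP6CK7 at F14. In triploid heads 2 of 3 tested members fell, where 15.6% of all genes were called. CYP6CK7 was at 0, 0.975, 2.81, 3.57 and 3.59 CPM in F14 triploid heads and 6.58, 12.1, 15.998, 22.8 and 33.4 CPM in F2 triploid heads, with no overlap. It fell by 3.01 ± 0.64 on the log2 scale (adjusted p = 0.0046), and CYP6CK6 by 1.85 ± 0.55 (0.031). The summed muscle markers, given above, were higher in every F14 than every F2 triploid head. Most of that sum was Tm1. Zasp66 averaged 436 CPM in F14 and 61.4 CPM in F2 triploid heads, though its libraries overlapped between the groups, as did those of Tm2. Tm2 averaged 64.6 CPM in F14 and 66.3 CPM in F2 triploid heads. The part of these markers in the result was not tested. CYP6CK6 lost its call without D33, D34, D82B or D83B (-1.56 to -1.81, adjusted p 0.053 to 0.081). The 2 groups fitted alone gave adjusted p of 0.076 for CYP6CK7 and 0.22 for CYP6CK6. CYP6CK8 differed by -1.54 ± 1.11 (0.36) and was called without D84 (-5.15, 0.048). These comparisons share the F14 triploid heads with the ploidy contrast above. In diploid heads, where the generation contrast follows from the choosing ones, CYP6CK6 was at 2.88, 5.04, 5.61, 7.46 and 8.80 CPM in F14 and 9.76, 10.7, 12.4, 13.5 and 14.605 CPM in F2 libraries, which did not overlap. The fold changes there were -1.03 ± 0.52 for CYP6CK6, -1.24 ± 0.59 for CYP6CK7 and -0.42 ± 0.89 for CYP6CK8.

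Among the tested ploidy and generation contrasts, the largest changes were between generations in triploid female abdomens. CYP6CK6, CYP6CK7 and CYP6CK8 rose at F14, 3 of 4 tested members, where 75.1% of all genes were called in either direction. CYP6CK7 was at 1.49, 3.88, 11.3 and 20.4 CPM in F14 triploid abdomens and 0, 0.0387, 0.0421, 0.128 and 0.27 CPM in F2 triploid abdomens. CYP6CK6 was at 1.39, 2.04, 2.48 and 3.42 CPM in the F14 and 0, 0.0451, 0.0842, 0.134 and 0.17 CPM in the F2 abdomens. CYP6CK8 was at 0.249, 0.537, 0.561 and 2.33 CPM in the F14 abdomens and had a count of 0 in all 5 F2 abdomens. The groups did not overlap for any of the 3 genes. CYP6CK7 rose by 6.65 ± 0.84 (adjusted p = 8.8e-06) and CYP6CK6 by 4.80 ± 0.55 (3.7e-06). CYP6CK8 was at least 36.1-fold higher at F14 (adjusted p = 0.00034), with the floor at 3 counts over the F2 group, and at least 17.6-fold higher without D87. The fold change of CYP6CK7 was 5.95 without D87, 4.88 without D86 and D87, and 7.48 without D37. The fitted fold change of CYP6CK8 was 7.38 without D87, against 8.34 with it, and it is no bound because 1 arm was at 0.

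CYP6CK11 did not follow them. It was at 1.07, 2.48, 3.46 and 4.63 CPM in F14 triploid abdomens and 4.15, 4.17, 4.92, 5.53 and 5.72 CPM in F2 triploid abdomens, and the groups overlapped. The difference was -0.67 ± 0.35 (adjusted p = 0.098), with a call when D89 was left out (-0.98, 0.023). Germ line markers, 3 measured of 4, summed to 333 to 1167 CPM in the F14 and 2492 to 2708 CPM in the F2 triploid abdomens. Muscle markers summed to 1553 to 3816 CPM in the F14 and 602 to 659 CPM in the F2 abdomens, while the neuronal ones summed to 32.8 to 107.8 CPM in the F14 and 3.15 to 4.64 CPM in the F2 abdomens. Most of the muscle sum was Tm1. Zasp66 averaged 231.5 CPM in the F14 and 2.83 CPM in the F2 abdomens, with no overlap. Tm2 ran the other way, at 58.7 to 78.2 CPM in F14 and 103.3 to 118.1 CPM in F2 abdomens, also without overlap. Their part in these changes was not tested. Among the F14 triploid abdomens, D86 and D87 had both the highest Syt1 (101.7 and 84.1 CPM, against 29.5 and 38.9 CPM in D89 and D90A) and the highest CYP6CK7 (11.3 and 20.4 CPM, against 1.49 and 3.88 CPM).

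**Figure D5:**
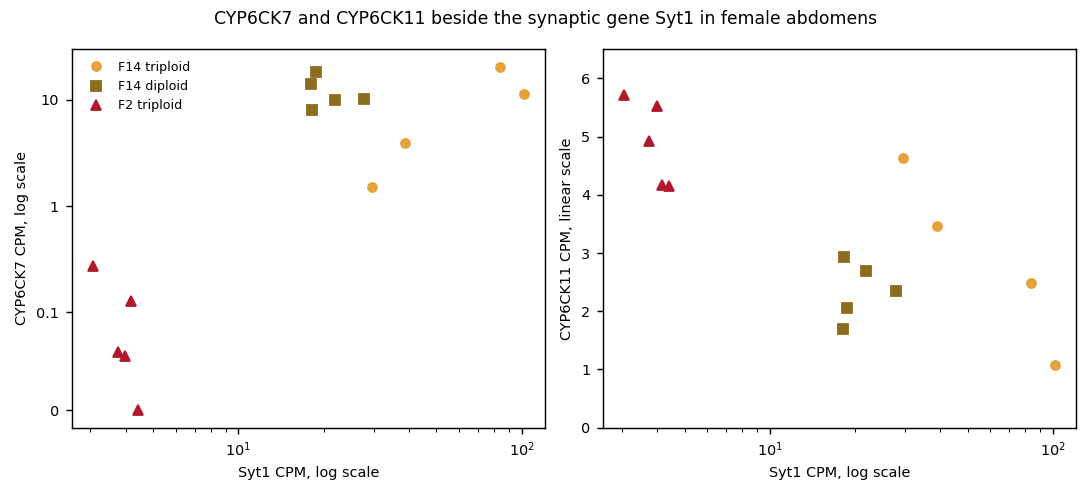
CYP6CK7 (left, log axis) and CYP6CK11 (right, linear axis) in CPM against the synaptic gene Syt1 in CPM (log axis) in the 14 female abdomen libraries used. The 5 F2 triploid libraries have the lowest Syt1, the lowest CYP6CK7 and CYP6CK11 of 4.15 to 5.72 CPM.

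Between F14 triploid and F14 diploid female abdomens 0 of 4 tested members were called, where 37.8% of all genes were. CYP6CK8 was the member with an unadjusted p under 0.05, at 1.72 ± 0.75 (0.045 before and 0.096 after adjustment), and DESeq2 called none. It was at 0.135, 0.168, 0.235, 0.31 and 0.773 CPM in the diploid abdomens, and library D87 was highest of the triploid ones listed above. CYP6CK6 differed by -0.18 ± 0.44 (0.78), CYP6CK7 by -0.15 ± 0.63 (0.87) and CYP6CK11 by 0.55 ± 0.35 (0.23). This outcome rested on single libraries. Without D86 and D87, CYP6CK7 was called lower (-1.92, adjusted p = 0.035) and CYP6CK11 higher (1.007, 0.017). CYP6CK11 was also called without D86 (0.80, 0.041) and CYP6CK8 without D89 (2.04, 0.047). CYP6CK10 had too few counts for the test, at 0.199, 0.376, 0.515 and 0.897 CPM in triploid and 0.105, 0.136, 0.166, 0.185 and 0.197 CPM in diploid abdomens, with no overlap.

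Female and male abdomens differed in most genes. These contrasts were tested, but their male libraries also entered the values that chose the members. Their p-values, here and in the other abdomen contrasts between the sexes, are thus not independent of that choice. Between F14 diploid female and F15 diploid male abdomens 4 of 5 members were called, all lower in females. Of all genes 80.6% were called in either direction and 39.4% lower in females, so a call by itself says little about the members. CYP6CK8 was at 0.135, 0.168, 0.235, 0.31 and 0.773 CPM in females and 190.1, 206, 253, 277 and 281 CPM in males. CYP6CK7 was at 7.96, 9.84, 10.2, 14.01 and 18.3 CPM in females and 193, 202, 306, 344 and 357 CPM in males. The sexes did not overlap for either gene. The fold changes were -9.42 ± 0.60 for CYP6CK8, -5.50 ± 0.48 for CYP6CK10, -4.41 ± 0.44 for CYP6CK7 and -4.40 ± 0.43 for CYP6CK6, each with an adjusted p of 2.1e-10 or smaller. CYP6CK11 was at 1.70, 2.05, 2.34, 2.69 and 2.93 CPM in females and 1.27, 1.41, 2.32, 2.76 and 3.50 CPM in males, which overlapped, and its difference was 0.19 ± 0.40 (0.66), or -0.25 under relative log expression scaling. The summed pair was lower in females, at -1.91 ± 0.36 (2.2e-05). Germ line markers summed to 1016 to 1286 CPM in these female and 1.55 to 7.40 CPM in these male abdomens, and their part in the differences was not tested.

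Against F15 haploid male abdomens the same 4 members were lower in F14 diploid females, where 78.6% of all genes were called and 36.7% were lower. Their fold changes were -8.83 ± 0.59 for CYP6CK8, -5.07 ± 0.44 for CYP6CK6, -4.79 ± 0.45 for CYP6CK7 and -4.27 ± 0.46 for CYP6CK10, and CYP6CK11 was at 0.62 ± 0.41 (0.16). The summed pair was at -0.89 ± 0.36 (0.025). Both comparisons use the same female libraries. Without female library D96, whose CYP6CK8 was highest, the fold change of that gene was -10.04 against diploid and -9.45 against haploid males.

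Early in the line CYP6CK11 passed the test. Between F2 triploid female and F3 diploid male abdomens 3 of 5 members were lower in females and 1 was higher, where 87.9% of all genes were called, 48.8% lower and 39% higher. CYP6CK11 was at 4.15, 4.17, 4.92, 5.53 and 5.72 CPM in F2 triploid females and 0.111, 0.145, 0.334, 0.436 and 0.604 CPM in F3 diploid males, with no overlap, and was higher in females by 3.87 ± 0.47 (adjusted p = 7.0e-09). The summed pair gave 2.98 ± 0.40 (3.9e-08). CYP6CK7 was at 0, 0.0387, 0.0421, 0.128 and 0.27 CPM in females and 79.0, 102.2, 103.2, 104.2 and 107.6 CPM in males. It was lower in females, at -9.99 ± 0.64 (5.2e-15), as was CYP6CK6, at -7.34 ± 0.60 (1.2e-12). CYP6CK8 was at least 2580-fold lower (1.9e-13). CYP6CK10 differed by 0.08 ± 0.46 (0.87). The fold change of CYP6CK7 was -10.78 without D37. Germ line markers summed to 2492 to 2708 CPM in the F2 triploid female and 3.11 to 12.02 CPM in the F3 diploid male abdomens.

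In heads, where the contrasts between the sexes had chosen members, CYP6CK8 was far lower in females, with fold changes of -6.61 to -5.07 over the 4 contrasts. CYP6CK11 was at 3 counts in all over the 5 F14 diploid female heads, so its ratio to F15 diploid male heads was 711-fold lower, with a counting interval of 243 to 3450, and to F15 haploid male heads 736-fold lower (251 to 3570). CYP6CK6 and CYP6CK7 ran the other way at the early generations. They were higher in F2 diploid female than F3 diploid male heads by 3.64 ± 0.57 and 3.65 ± 0.53. CYP6CK7 was at 16.6, 20.4, 21.9, 28.7 and 33.3 CPM in those female heads and 0.963, 1.47, 1.63, 2.16 and 3.42 CPM in those male heads, and in males it was lower in heads than in abdomens.

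Head and abdomen of females were compared in 3 groups, and CYP6CK11 was lower in heads in all 3. Differences between these groups were not tested. In F2 triploid females CYP6CK6, CYP6CK7 and CYP6CK8 were higher in heads and CYP6CK11 was lower, all 4 tested members, where 84.5% of all genes were called. CYP6CK7 was at 6.58, 12.1, 15.998, 22.8 and 33.4 CPM in heads and 0, 0.0387, 0.0421, 0.128 and 0.27 CPM in abdomens, a difference of 7.52 ± 0.90 (adjusted p = 6.2e-09), or 8.32 without D37. CYP6CK6 differed by 5.75 ± 0.68 (4.6e-09). CYP6CK8 was at least 8.29-fold higher in heads (0.0012) and at least 4.61-fold higher without D34, a call that was lost on log2(TPM + 0.5) (adjusted p = 0.15). CYP6CK11 was at 0, 0, 0, 0.0442 and 0.134 CPM in heads and 4.15, 4.17, 4.92, 5.53 and 5.72 CPM in abdomens, a difference of -6.85 ± 1.00 (5.3e-07), or -8.21 without D35.

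In F14 diploid females 1 of 4 tested members was called, where 74.9% of all genes were. CYP6CK11 held 3 counts in all in the 5 heads and 844 in the 5 abdomens. Per depth it was far lower in heads, with a counting interval of 36.1- to 515-fold (adjusted p = 3.9e-06). All 3 counts were in library D91. The same heads were in the contrasts that chose CYP6CK11, so this p-value is not independent of the choice. CYP6CK6 differed by 0.98 ± 0.51 (0.084) and CYP6CK7 by -0.19 ± 0.62 (0.8). CYP6CK6 passed the test under 5 of the 6 other settings, relative log expression scaling and DESeq2 among them, with 1.29 under both.

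In F14 triploid females CYP6CK7, CYP6CK8 and CYP6CK11 were lower in heads, 3 of 4 tested members, where 66.9% of all genes were called. CYP6CK11 had a count of 0 in all 5 heads and was at least 72.8-fold lower there (adjusted p = 1.2e-06). CYP6CK7 differed by -2.05 ± 0.69 (0.0095) and CYP6CK8 by -3.69 ± 1.09 (0.0041), from the libraries given above. The call of CYP6CK7 was lost without D87 (-1.34, adjusted p = 0.094), without D86 and D87 (-0.26, 0.78), and with the 2 groups fitted alone (0.13). CYP6CK8 was at -2.52 without D86 and D87 (0.079), at -2.69 without D87 and at -7.74 without D84.

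The other 38 P450 genes give the setting. In F14 triploid against F14 diploid female heads, 11 of 33 tested were called lower and 5 higher, with a median fold change of -0.92 against -0.03 over all genes tested. Of all genes 13.7% were lower and 16% higher there. CYP6AQ4 was at 13.1 CPM in triploid and 67.0 CPM in diploid heads, and CYP9AG3 at 23.4 and 128 CPM. CYP4AB9 was higher in triploid heads, at 70.8 CPM against 3.96 CPM. In F14 against F2 triploid female abdomens, 30 of 35 tested rose and 2 fell, with a median of 5.36 against 0.06 over all genes. Of all genes 75.1% were called there and 40.1% rose. CYP4G44, of the subfamily that makes cuticular hydrocarbons, was at 141 CPM at F14 and 2.65 CPM at F2. CYP6CK3, another CYP6CK row, fell there by 2.17 ± 0.48 on the log2 scale (adjusted p = 0.001), to 2.07 CPM at F14 against 9.74 CPM at F2. Between F15 and F3 male heads, 13 of 35 rose and none fell in haploids, where 14.4% of all genes were called, and 12 rose and 2 fell in diploids, where 18.3% were. CYP6AQ4 rose in the diploid heads to 723 CPM at F15, against 75.5 CPM at F3.

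In F14 triploid against F14 diploid female abdomens 14 of 35 other P450 genes rose and none fell, 10 of them among 14 CYP4 genes. Of all genes 37.8% were called there and 21.9% rose. Between F14 diploid female and F15 diploid male abdomens 80.6% of all genes were called and 39.4% were lower in females. Of the other P450 genes 31 of 38 were lower and 3 higher in females. CYP6CK3 was among the 3, at 2.12 CPM in females and 0.215 CPM in males. In F15 diploid against F15 haploid male abdomens 5 of 35 rose and none fell, where 11.1% of all genes were called, and in F15 male heads none of 35 was called in either direction, where 0.109% were. In F14 against F2 diploid female heads 1 of 33 rose and 5 fell, where 19.4% were called. In F14 against F2 triploid female heads 14 of 33 fell and 1 rose, with a median of -1.34 against -0.03 over all genes tested. Of all genes 15.6% were called there. CYP6CK13P, whose symbol carries the mark of a pseudogene, was at 7.15 CPM in F2 triploid and 1.83 CPM in F2 diploid female heads, and rose by 1.91 ± 0.41 (adjusted p = 0.001). Of 15 glutathione S-transferase genes, which conjugate oxidised compounds to glutathione, 9 of 14 tested rose and none fell in F14 triploid against F14 diploid female abdomens. The share called over all genes was 37.8% there. In F14 triploid against F14 diploid female heads 1 of 15 rose and 1 fell, where 29.7% of all genes were called.

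The genes whose group means followed each member most closely were found over 15 groups and 12683 genes, as Pearson's r of mean log2 CPM. The uncharacterised gene LOC100120197 was first for both CYP6CK6 (r = 0.965) and CYP6CK7 (r = 0.972). CYP6CK7 was second for CYP6CK6 (r = 0.958), and SP128 was second for CYP6CK7 (r = 0.966). LOC100114997 (r = 0.983) and LOC100115191 (r = 0.980) were nearest to CYP6CK8. LOC116416650, which RefSeq lists as a long non-coding RNA, and LOC100119179 were nearest to CYP6CK10 (r = 0.939 and 0.930). For CYP6CK11 no gene came as close, with LOC107980460 at r = 0.861 and LOC100121833 at r = 0.830. Neither neighbour of the pair was among the nearest 2 genes of the other. By Spearman's rho 9 of these 10 places went to other genes, and LOC100120197 for CYP6CK7 stayed. Nearest by rho were Or115 for CYP6CK6 (rho = 0.939), LOC100118613 for CYP6CK7 (0.975), LOC116417169 for CYP6CK8 (0.986), LOC103316537 for CYP6CK10 (0.929) and LOC100680214 for CYP6CK11 (0.832).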

How the data were processed

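RNA was read from poly-T selected, NEBNext Ultra libraries of heads and abdomens, per the labels' protocols. STAR 2.7.11a and RSEM 1.3.1 are named in the submitters' processing notes. Expected counts per gene, one column per library, and TPM per gene are what the authors deposited, and the genome build is not given in the sources used here. Expected counts were rounded to whole numbers. TMM scaling, filterByExpr (minimum count 10, total 15) and robust quasi-likelihood F tests were run with edgeR 4.0.16 in R 4.3.3, in separate fits for female heads, female abdomens, male heads, male abdomens, sexes and tissues, with Benjamini-Hochberg adjustment over all genes tested. CPM used TMM library sizes over the 74 libraries used. Libraries held 12634506 to 94984496 counts. Intervals and floors (3 counts over a group) cover counting error only. Alternatives were relative log expression scaling, no filter, DESeq2 1.42.0, limma 3.58.1 on log2 TPM with a pseudocount of 0.5 or 1, the 2 groups alone, and libraries left out. Scripts were tested on simulated data. For the members, contrasts that are sums of those that chose them were planned as tests but are described only. The members and lists were chosen with earlier results of these data known; all 5 members and up to 2 called genes of smallest adjusted p per list and contrast could be named. Symbols of all 14621 genes matched RefSeq.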

Additional observations from a re-analysis of the deposited data

Results flagged for a closer look

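Among 55 groups of libraries with a mean count of at least 10 for a member, 9 had 1 library far from the others of its group. Chance flags about 1 group in 20 where values scatter normally. That was not checked for these untransformed CPM, so the 9 cannot be set against that rate. CYP6CK8 gave 5 of the 9, of which 4 were in females, where its counts were low. It was at 0.773 CPM in F14 diploid female abdomen D96, against 0.135 to 0.31 CPM in the other 4. F14 diploid female head D92 was at 1.76 CPM, against 0.159 to 0.447. F14 triploid female abdomen D87 was at 2.33 CPM, against 0.249 to 0.561 in the other 3. F2 diploid female head D22 was at 1.79 CPM, against 0.317 to 0.737. In F3 diploid male heads D13 was at 64.8 CPM, against 22.6 to 28.2, and in deposited TPM it was at 49.7, against 35.9 to 47.8. CYP6CK6 was low in F15 haploid male abdomen D107, at 67.4 CPM against 122 to 136. CYP6CK7 was low in F3 diploid male abdomen D17, at 79.0 CPM against 102.2 to 107.6. CYP6CK11 was high in F15 haploid male head D102, at 26.1 CPM against 12.4 to 14.5, and in F3 haploid male head D4, at 36.9 CPM against 17.8 to 22.2.

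Some contrasts ran in opposite directions in 2 settings, with every library of one group beyond the other each time, and these differences were not tested here. CYP6CK10 was higher in diploid than haploid male abdomens at F15 (log2 1.21) and lower at F3 (-4.20), values set by the contrasts that chose the members. Between F14 and F2 triploid females, CYP6CK6 was at -1.85 in heads and 4.80 in abdomens, and CYP6CK7 at -3.01 in heads and 6.65 in abdomens. Between late and early generations, CYP6CK6 was at -1.03 in diploid female heads, -1.85 in triploid female heads and 1.64 in diploid male heads. CYP6CK7 was at -3.01 in triploid female heads and 1.41 in diploid male heads. Between head and abdomen, CYP6CK11 was at -6.22 in F14 diploid females, 2.85 in F15 diploid males and 3.21 in F15 haploid males. In F14 triploid females its fitted value was -9.37, which is no bound because all head libraries were at 0. At the early generations CYP6CK6 was at 5.75 in F2 triploid females and -3.88 in F3 diploid males, CYP6CK7 at 7.52 and -5.68, and CYP6CK11 at -6.85 and 4.76, in the same order of groups.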

How the results depend on the processing

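No direction that passed the test was turned round by any alternative run. Of the tested values of single members under alternatives, 738 stayed on their side of the threshold, 16 gained a call and 30 lost one. Calls among members numbered 4 of 10 tests for ploidy, 5 of 7 for generation, 0 of 3 for ploidy by generation, 12 of 15 for sex and 8 of 12 for tissue. Of all genes, 29.7% to 42.4% were called in those ploidy contrasts and 15.6% and 75.1% in the generation ones. The shares were 24.3% for ploidy by generation, 78.6% to 87.9% for sex and 66.9% to 84.5% for tissue. These counts by themselves therefore say little about the members. With the 2 groups fitted alone the ploidy and the generation calls each numbered 2, and on log2(TPM + 0.5) and log2(TPM + 1) the ploidy-by-generation calls numbered 1. Leaving out 1 library, or D31 with D32 or D86 with D87, gave 3 to 6 calls for ploidy, 4 to 6 for generation, 0 for ploidy by generation, 12 for sex and 6 to 8 for tissue. The summed pair, the setting without D86 and D87 and the lower bounds without single libraries were chosen after seeing the data. Counts over all genes moved with the fit. Between F14 and F2 triploid female heads 1736 genes were called, against 308 with the 2 groups alone, 1105 and 1095 on TPM, and 3030 without D31 and D32. In diploid female heads the count between generations was 2156, against 4828 with the 2 groups alone and 3257 on log2(TPM + 1). In F15 diploid against haploid males it was 12 in heads, 9.42 times as many by DESeq2 and 128 with the 2 groups alone, and 1259 in abdomens, against 0 with the 2 groups alone and 2040 by DESeq2. Between generations it was 1587 in haploid and 2015 in diploid male heads, against 3039 and 649 with the 2 groups alone. The cause was not tested. Relative log expression scaling moved the median of all genes by -0.459 to 0.309, and TPM by -0.506 to 0.695. No paired analysis was possible because library numbers are not shared between groups. Low counts limit CYP6CK8, CYP6CK10 and CYP6CK11 in females, where a count of 0 allows up to 0.00857 to 0.04 CPM over a group.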
